A study of Mus musculus with 22 samples.

Results

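The genes described here are the 70 nuclear genes for subunits of respiratory chain complexes I to IV, among 21887 mouse protein-coding genes on chromosomes 1 to 19, X and Y. They were chosen by a rule on symbols that uses no measured value, though it was set with earlier results of these data known. It takes names that begin with Ndufa, Ndufb, Ndufc, Ndufs or Ndufv and a number, with Uqcr, or with Cox4 to Cox8. The names Sdha, Sdhb, Sdhc and Sdhd are added. Complex I has 40 of them, complex II 4, complex III 8 and complex IV 18. Ndufa4 is counted in complex I by its symbol, although its product is now placed in complex IV. The symbol rule takes in neither the assembly factors nor Cyc1 and Ndufab1, which encode subunits under other names.

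The respiratory chain sits in the inner mitochondrial membrane. Complex I oxidises NADH and complex II oxidises succinate, both pass electrons to ubiquinone, complex III hands them on to cytochrome c, and complex IV reduces oxygen. The proton gradient that complexes I, III and IV build drives ATP synthase. Most subunits are nuclear-encoded, lie scattered over the chromosomes and are expressed in nearly all cells, with the factors NRF1, GABPA (an ETS protein) and YY1 among their known regulators. In the intestinal epithelium, stem cells and absorptive cells both use mitochondrial respiration. PCGF6, a Polycomb protein with a RING finger, belongs to a form of PRC1 that also holds MGA, MAX and E2F6. The ligase of PRC1, RING1B, places the histone mark H2AK119ub1. CTCF binds DNA at insulators and loop anchors, where it halts cohesin, the ring-shaped complex that RAD21 helps to close.

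The study profiled chromatin by ChIP-seq in small intestinal crypts, the pits that hold the epithelial stem cells, after loss of Pcgf6 and in wild type (WT), and in WT embryonic stem cells (ESC). AhCre Pcgf6 KO and AhCre WT crypts each gave 1 library for PCGF6, RING1B and H2AK119ub1. Villin Pcgf6 KO and Villin WT crypts each gave 1 library for RING1B, H2AK119ub1, CTCF and RAD21, and ESC of the E14 line gave 1 each for PCGF6 and RING1B. The labels give the strain background C57BL/6 throughout. AhCre is driven by a drug-inducible promoter and was switched on with BNF, while the Villin promoter drives Cre in the intestinal epithelium and was induced with tamoxifen. The series text names male mice of 8 to 12 weeks and crypts taken 7 days after induction, but it describes crypts for RNA, and whether the ChIP crypts were alike was not stated. The Pcgf6 allele, whether WT mice carried Cre or received the inducing agent, and whether animals were pooled are not given by the labels or the series text.

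Each of the 16 lists is therefore 1 library, no value has a replicate error, and no difference between KO and WT or between crypts and ESC was tested. The lists held between 1662 and 32651 peaks and no read counts, so their depth is unknown. Every peak carries the authors' own score of 10 or more, the −log10 of a p or q value, which of the 2 was not stated, and scores are not scaled between libraries. A gene was said to have a peak if one came within 1 kb of either outer end of the gene in the RefSeq table. At Cox5a and Cox7a2 the RefSeq start lies 3904 bp and 4612 bp inside these ends, so that a peak on it is not counted, and such peaks are given apart. The peak was called lost in KO if the KO list had none in that window and none that overlapped the WT peak by 1 bp or more. A weaker peak can come from fewer cells with the protein bound or from less protein bound per cell, and these cannot be told apart in bulk chromatin. Whether the peaks in the PCGF6 list of KO crypts mark PCGF6 protein at all was not tested. Below, a gene with PCGF6 in KO crypts is one with a peak in that list. Pcgf6 itself had no PCGF6 peak in AhCre Pcgf6 KO crypts, against a score of 20.8 in AhCre WT crypts. This absence cannot check the genotype label, since 58.3% of all genes with a WT PCGF6 score from 20 to 40 lost the peak. All 39 Hox genes, classical PRC1 targets, had a peak in the ESC list titled RING1B and 21 in the one titled PCGF6, whose description lines exchange the 2 names.

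PCGF6 lay at most respiratory chain genes in WT crypts, with mostly low scores, and at few of them after Pcgf6 loss or in ESC. In AhCre Pcgf6 KO crypts 9 of the 70 genes had a PCGF6 peak (12.9%, against 13.7% of all protein-coding genes). In AhCre WT crypts 48 of 70 had one (68.6%, against 39.9% of all genes), and in ESC 7 of 70 (10.0%, against 22.7% of all genes). The median score of the genes with a peak was 13.6 in KO crypts, against 15.9 in WT crypts, and 20.6 in ESC. Over all genes with a peak these medians were 15.4 in KO crypts, 21.4 in WT crypts and 18.9 in ESC. The WT share thus stood above the background while the median WT score stood below it. With peaks of score 20 or more only, the share was 1.43% in KO crypts (4.4% of all genes), 25.7% in WT crypts (21.5% of all genes) and 5.71% in ESC (10.5% of all genes).

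**Figure D1:**
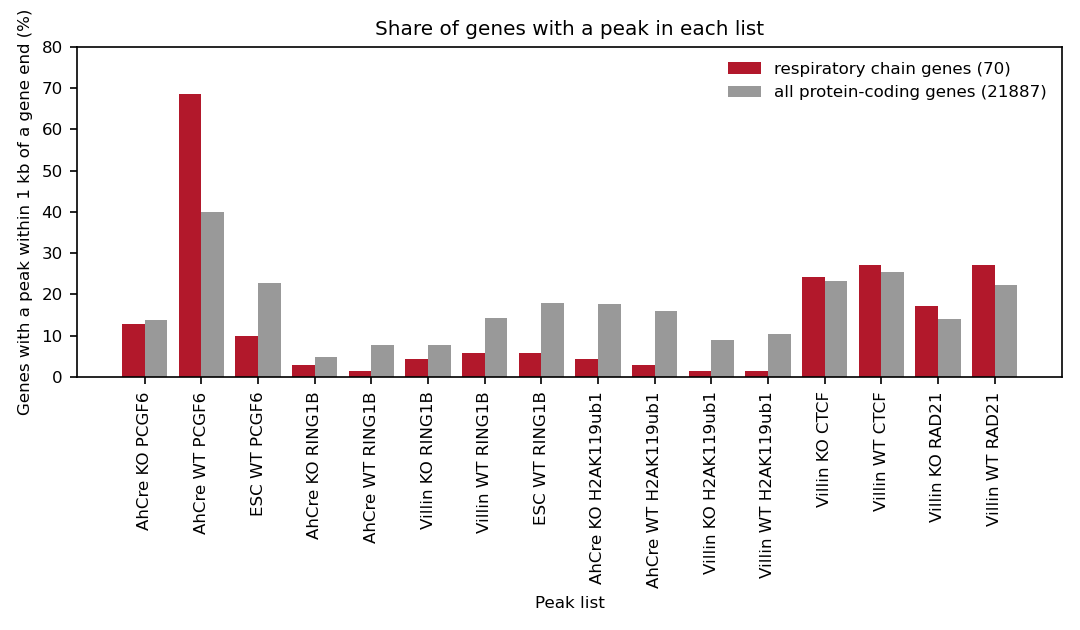
Percentage of genes with a peak within 1 kb of a gene end (vertical axis) in each of the 16 peak lists (horizontal axis), for the 70 respiratory chain genes (red) and all 21887 protein-coding genes (grey). The widest gap is in the AhCre WT PCGF6 list, with 68.6% of the respiratory chain genes and 39.9% of all genes, and in each RING1B and H2AK119ub1 list the red bar is the lower one.

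The lists differ in length, with 4779 PCGF6 peaks in KO crypts, 17163 in WT crypts and 7850 in ESC. Shortened to its 7850 highest scores, which left peaks of 19.4 or more, the WT list still reached 19 of the 70 genes (27.1%, against 22.4% of all genes). Shortened to 4779 peaks, with a lowest score of 27.4, it reached 6 (8.57%, against 14.3% of all genes). The WT share was thus above the background with all peaks and below it with the 4779 strongest alone. Near the score of 20, Ndufa11 (20.1), Ndufa10 and Cox4i1 (20.4 each) stood just inside, and Cox7c (19.5) and Ndufb8 (18.0) just outside.

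In complex I, 8 of 40 genes had PCGF6 in KO crypts (13.7% of all genes) and 27 in WT crypts (39.9%). The 7 genes for its core subunits, which carry the flavin and the iron-sulfur clusters, held 2 of these peaks in KO crypts and 5 in WT crypts. Ndufs7, for the core subunit with the last iron-sulfur cluster before ubiquinone, had no KO peak and a WT score of 42.9, the highest of the core genes. Ndufs8, for a core iron-sulfur subunit, had a score of 11.5 in KO crypts and 28.3 in WT crypts. Ndufv2, for a core subunit of the NADH-oxidising arm, had 10.3 in KO crypts and 20.8 in WT crypts. The 2 other core genes with a WT peak, Ndufs1 (23.8) and Ndufs3 (11.0), had none in KO crypts, and Ndufv1 had none in either.

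Among the accessory genes of complex I, 6 of 33 had a peak in KO crypts and 22 in WT crypts. Ndufa13, for an accessory subunit also known as the cell death regulator GRIM-19, stood far above all the other genes, with 139.6 in KO crypts, 462.3 in WT crypts and 98.2 in ESC. Ndufs4, for an accessory subunit whose loss causes Leigh-like disease in mice, had 10.3 in KO crypts and 38.7 in WT crypts. Ndufb4 had 11.1 in KO crypts and 26.9 in WT crypts, and Ndufb2 had 15.7 in KO crypts and 24.4 in WT crypts, both genes for subunits of the membrane arm. Ndufb5, also a membrane arm gene, had 13.6 in KO crypts and 14.3 in WT crypts. At the membrane arm gene Ndufb6 the strongest peaks, 15.4 in KO crypts and 15.8 in WT crypts, lay 662 bp and 526 bp beyond its far end, over Topors and Smim27. On the start of Ndufb6 itself there was no KO peak and a WT peak of 10.1, so by the start alone this gene counted among the losses. The remaining 16 accessory genes with a WT peak had none in KO crypts. They ran from Ndufa8 (22.4), Ndufa10 (20.4), Ndufa11 (20.1), Ndufb8 (18.0), Ndufa12 (17.9) and Ndufa3 (17.4) down through Ndufa6, Ndufa7, Ndufs6, Ndufa4l2, Ndufa9, Ndufb7, Ndufb9, Ndufb1 and Ndufa5 to Ndufb3 (10.1).

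All 4 complex II genes had PCGF6 in WT crypts (39.9% of all genes) and none in KO crypts (13.7%) or ESC (22.7%). The WT score was 23.1 at Sdha, for the flavoprotein that oxidises succinate. It was 13.4 at Sdhc, 10.9 at Sdhb and 10.3 at Sdhd, for the membrane anchors and the iron-sulfur subunit. Complex II thus lost each of its peaks, and 3 of the 4 had a WT score of 13.4 or less. Of all genes with a WT score from 10 to 15, 95.3% lost the peak, and from 20 to 40 it was 58.3%.

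In complex III, 1 of 8 genes had a peak in KO crypts (13.7% of all genes) and 7 had one in WT crypts (39.9%). The gene with both was Uqcrc2, for a core protein, with 13.8 in KO crypts and 24.4 in WT crypts. The other core genes, Uqcrc1 (29.4) and Uqcrfs1 for the Rieske iron-sulfur protein (21.6), had a peak in WT crypts and none in KO crypts. Uqcrfs1 also had one in ESC (20.6). Among the small subunits, Uqcrh (16.1), Uqcrq (15.4), Uqcrb (15.2) and Uqcr10 (13.2) had a WT peak that was lost, and Uqcr11 had none in any PCGF6 list.

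In complex IV, counted by the gene ends, none of the 18 genes had PCGF6 in KO crypts (13.7% of all genes) and 10 did in WT crypts (39.9%). On the RefSeq start inside the gene, Cox5a, for a subunit on the matrix side, had a peak of 37.0 in KO crypts and 62.5 in WT crypts, and Cox7a2 had none in KO crypts and one of 11.5 in WT crypts. With these starts added, a choice made after the values were seen, 10 of the 70 genes had PCGF6 in KO crypts (14.7% of all genes) and 50 in WT crypts (42.4%). Cox5b, for another subunit on the matrix side, had no peak in KO crypts, a score of 40.1 in WT crypts and 63.5 in ESC. Cox6a1 (24.8), Cox4i1 (20.4), Cox7c (19.5) and Cox6c (15.2) followed in WT crypts. The others with a WT peak were Cox7a2l (14.02), known for its part in supercomplexes, Cox6b2 (13.4), Cox6b1 and Cox7a1 (13.2 each) and Cox8a (10.1). Cox8a and Ndufb3 were the 2 genes just inside the lowest score.

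**Figure D2:**
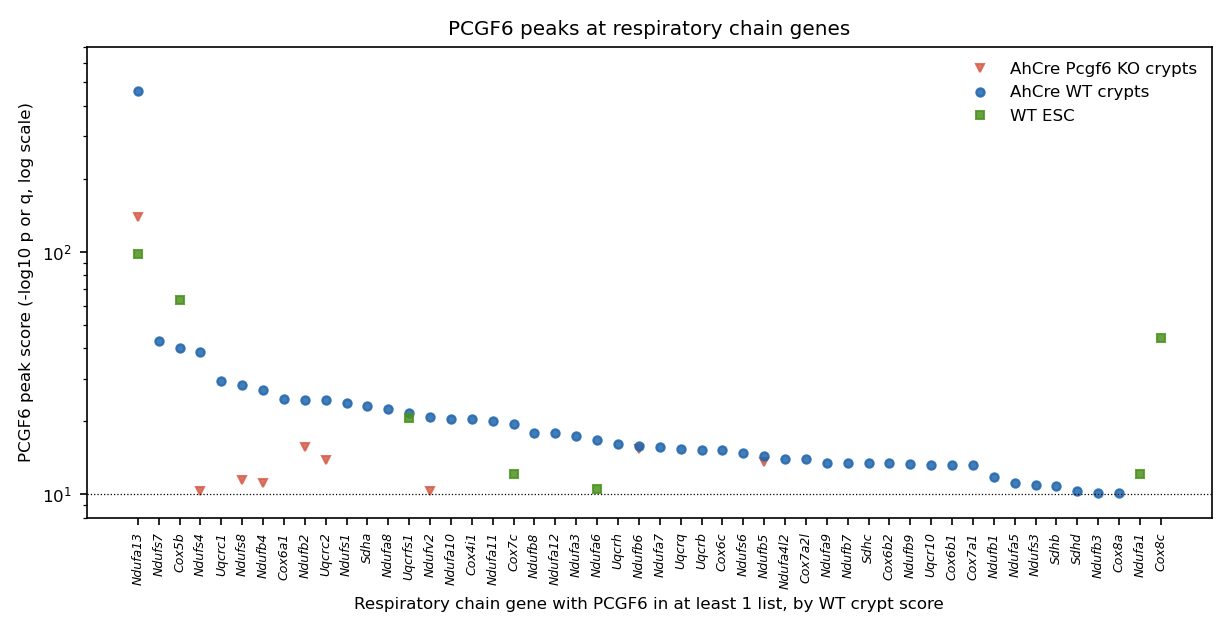
PCGF6 peak score on a log scale (vertical axis, −log10 p or q) at the 50 respiratory chain genes with PCGF6 at a gene end in at least 1 list (horizontal axis, by WT score), for AhCre Pcgf6 KO crypts (triangles), AhCre WT crypts (circles) and WT ESC (squares); the dotted line is the lowest score in the lists, 10. All 9 KO points lie below the WT point of the same gene, and Ndufa13 stands apart at 139.6 in KO and 462.3 in WT.

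Several complex IV subunits and Ndufa4 have a paralogue with a narrower tissue range, and these pairs did not share one pattern. Counted by the gene ends, of 8 such paralogues none had PCGF6 in KO crypts and 3 did in WT crypts. Of their 7 broadly expressed counterparts none did in KO crypts and 4 did in WT crypts. Over all genes the shares were 13.7% in KO and 39.9% in WT. In WT crypts the testis form Cox6b2 had 13.4 and Cox6b1 had 13.2, so both members of the pair had a peak. The muscle form Cox6a2 had none and Cox6a1 had 24.8. For Cox4i2, the lung and hypoxia form, there was none, against 20.4 at Cox4i1. For the muscle form Cox7a1 the peak of 13.2 lay at the far end of the gene, nearer to Capns1, while Cox7a2 had the peak of 11.5 on its RefSeq start and none at a gene end. The hypoxia-induced Ndufa4l2 had 14.03, while Ndufa4 had none. Neither Cox7b2 nor Cox7b had one, and among the Cox8 genes Cox8a had a peak whereas Cox8b and Cox8c had none.

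No PCGF6 peak lay within 1 kb of an outer end of the other 22 genes in WT crypts, Cox5a and Cox7a2 among them. The closest were at Cox4i2, 1.48 kb from a gene end, and Ndufb10, 1.66 kb away, just outside the window. Just inside it, the peak at Cox7a1 lay 677 bp from the gene and that at Uqcrh 362 bp. For Cox7b, Uqcr11 and Cox8b the nearest peak was 2.45 to 2.63 kb away, and the peaks on the starts of Cox5a and Cox7a2 lay 2.91 and 3.69 kb inside the gene ends. It was 6.17 to 7.44 kb away for Ndufv1, Ndufa2, Ndufc1 and Ndufv3. The nearest peak was 17.9 kb or more from Ndufa4, Cox8c, Ndufc2, Cox6a2, Ndufb4b, Ndufa1, Ndufs5, Ndufb11, Ndufb4c and Cox7b2. Ndufb4b and Ndufb4c are copies of Ndufb4, and how the authors treated reads that match several copies was not stated.

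PCGF6 peaks were lost at 39 of the 48 genes with a WT peak (81.2%, against 64.4% of all genes with a WT peak). None was gained, against 20 genes or 0.152% of all genes without a WT peak. The balance turned when the lists were made equal in length. With the WT list shortened to the 4779 peaks of the KO list, 9 genes had a peak in KO crypts and 6 in WT crypts. Then 3 of the 6 were lost, Cox5b, Ndufs7 and Uqcrc1 (27.4% of all genes with a WT peak). Another 6 counted as gained, Ndufb2, Ndufb4, Ndufb5, Ndufb6, Ndufv2 and Uqcrc2 (4.29% of all genes without one). These 6 all had a peak in the full WT list, with scores from 14.3 to 26.9, each above the KO score. Shortening left out WT peaks under 27.4 and kept KO peaks down to 10.0, so these gains follow from the cut. The loss followed the WT score among respiratory chain genes and among all genes alike. With a WT score from 10 to 15 the peak was lost at 18 of 19 respiratory chain genes (94.7%) and at 95.3% of all genes. From 15 to 20 it was lost at 10 of 11 (90.9%) and at 86.8% of all genes, and from 20 to 40 at 9 of 15 (60.0%) and at 58.3%. Within these bands the shares were thus near the background, and 39.6% of the respiratory chain genes with a WT peak lay in the lowest band, against 25.4% of all such genes. At 40 or more the band held 3 respiratory chain genes, of which Ndufs7 (42.9) and Cox5b (40.1) lost the peak and Ndufa13 did not, while 13.0% of all genes there lost it. The bands were set after the values were seen.

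**Figure D3:**
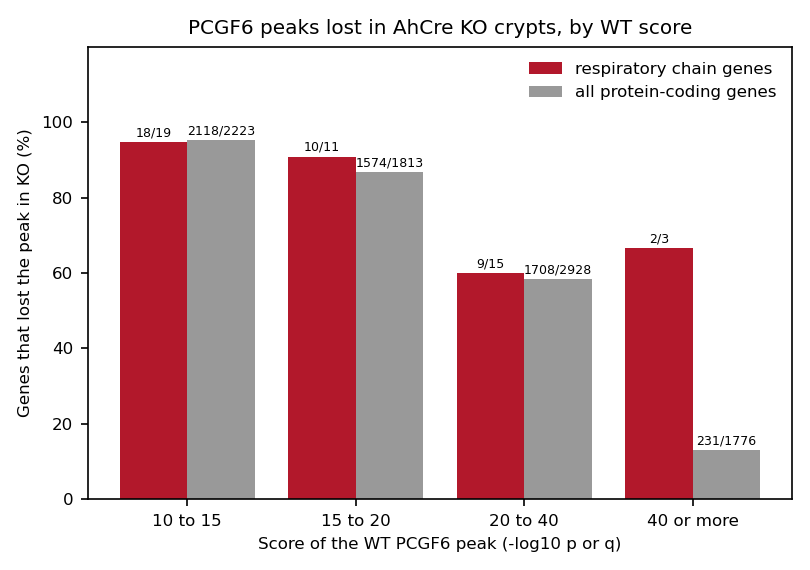
Percentage of genes with a WT PCGF6 peak that lost it in AhCre Pcgf6 KO crypts (vertical axis), by the score of the WT peak (horizontal axis, −log10 p or q), for respiratory chain genes (red) and all protein-coding genes (grey), with the counts above the bars. Below a score of 40 the bars of each pair are close, such as 60.0% and 58.3% from 20 to 40, and the highest band holds only 3 respiratory chain genes.

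ESC and crypts shared few PCGF6 peaks at these genes. Ndufa13, Cox5b, Uqcrfs1, Cox7c and Ndufa6 had one in both, 5 of 70, against 15.8% of all genes. These 5 make up 10.4% of the respiratory chain genes with PCGF6 in WT crypts (39.6% over all genes) and 71.4% of those with PCGF6 in ESC (69.7% over all genes). Cox7c had 19.5 in WT crypts and 12.1 in ESC, and Ndufa6 had 16.7 in WT crypts and 10.5 in ESC. Only ESC had a peak at Cox8c, the testis form of its subunit (44.2), and at Ndufa1, an X-linked membrane arm gene (12.1). Crypts alone had one at 43 genes, and 20 genes had none in either list.

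Where strand and gene start were known, the WT crypt peaks lay at the starts of the genes. Of 39 such genes with a peak, 34 had the start inside their strongest peak (73.4% of all such genes with a peak did). The peak's midpoint lay within 500 bp of the start at 33, which was not counted over all genes. The median offset of the midpoints was -13 bp, where negative is upstream, and the peaks had a median width of 1076 bp, the longest being 2564 bp at Ndufa13. With the window laid around the start alone, 8 of 55 genes had a KO peak (14.5%, against 14.1% of all genes with a known start). By the same window 40 of 55 genes had a WT peak (72.7%, against 40.6%). The KO peak was narrower than the WT peak at all 9 genes that kept one, and KO peaks had a median width of 812 bp. The lists as a whole differed in the same direction, with a median width of 721 bp in KO and 1026 bp in WT. At Ndufs4 the KO peak covered 348 bp and the WT peak 1189 bp, and at Ndufs8 the widths were 1205 bp in KO and 1268 bp in WT.

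**Figure D4:**
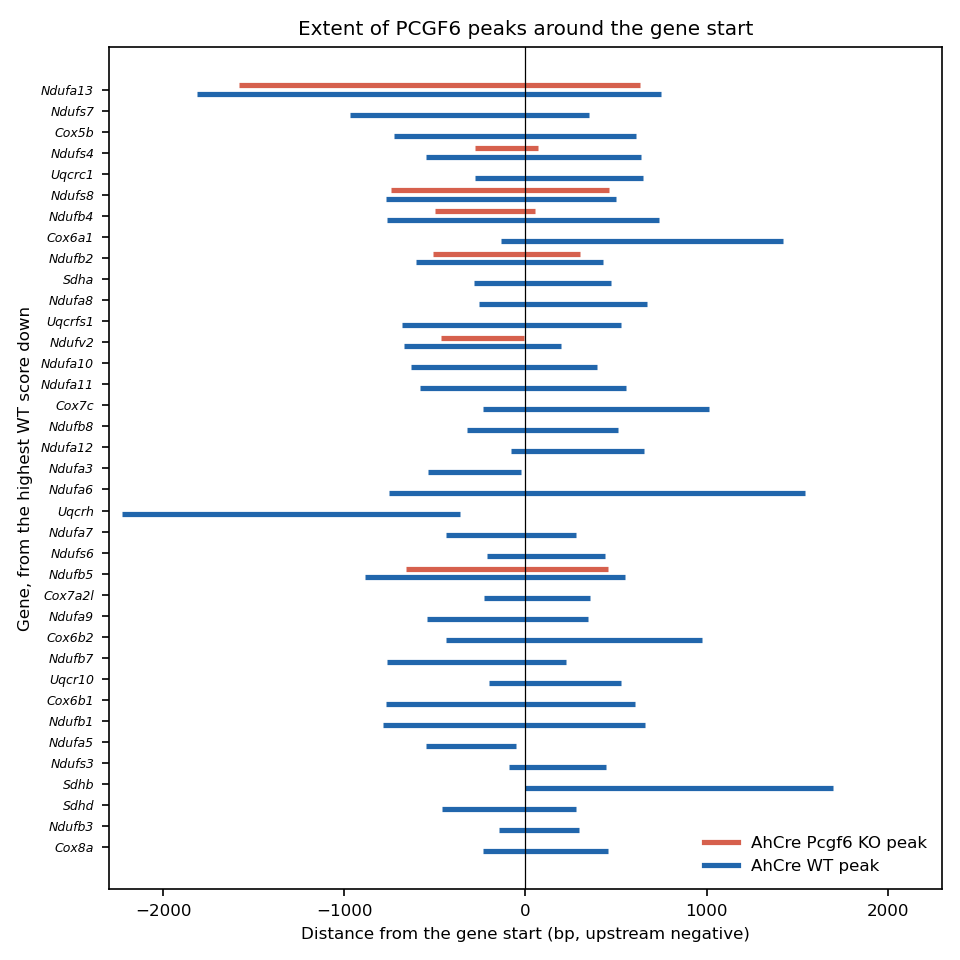
Extent of PCGF6 peaks in bp from the gene start (horizontal axis, upstream negative) at 37 respiratory chain genes with a known start and a WT peak centred within 2000 bp of it (vertical axis, from the highest WT score down), for AhCre Pcgf6 KO (red) and AhCre WT (blue) crypts. Most WT peaks span the start, the peaks at Uqcrh, Ndufa3 and Ndufa5 lie wholly upstream of it, and the 7 KO peaks drawn lie within the WT peak of the gene.

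Many of these peaks also lay at a neighbour, so that a peak at a respiratory chain gene need not belong to it. In WT crypts 26 of the 48 genes shared their strongest peak with another protein-coding gene, against 31.6% of all genes with a peak. In 10 cases the end of the other gene was nearer to the midpoint of the peak, among them Ndufs1 (Eef1b2, a translation elongation factor gene), Ndufb5 (Mrpl47, a mitochondrial ribosomal protein gene), Sdhd (Timm8b, a mitochondrial import gene) and Ndufa7 (Rps28, a ribosomal protein gene). The own end was little farther away, at 15 bp against 6 bp for Ndufs1 and 162 bp against 140 bp for Ndufb5. For Sdhd it was 90 bp against 38 bp, and for Ndufa7 78 bp against 68 bp. Such distances do not show which gene a peak belongs to. Counted only by peaks that touched no other gene, 5 of the 70 genes had PCGF6 in KO crypts and 23 in WT crypts. Neither this count nor that of the nearer ends was made over all genes, so they cannot be set against the background. The Ndufa13 peak is one of the shared ones. On mm10 it spanned chr8:69901391-69903602 in KO crypts and chr8:69901271-69903834 in WT crypts, and covered both the start of Ndufa13 and the whole of Tssk6, a testis-specific kinase gene that lies head to head with it at chr8:69902184-69903518.

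Of the 70 genes, 55 had a promoter in the RefSeq table of build GRCm38.p6, which gives the 250 bases before and 50 after a gene start. The promoter overlapped a WT PCGF6 peak for 39 of the 55 (70.9%, against 36.5% of 17492 genes). The promoters of 5 genes are shown 5′ to 3′ because PCGF6 results turn on them: the 3 genes with the highest WT scores at a gene end, the complex II gene with the highest, and Ndufs6, which also had RING1B. Capitals mark motif matches, and there are none at Ndufa13. The 300 bases shown for Ndufa13 are only part of its WT peak of 2564 bp. The midpoint of that peak, at -532 bp from the gene start, lies outside them, and the rest of the peak was not searched. Ndufa13 lies on the minus strand at chr8:69901971-69902270, Ndufs7 on the plus strand at chr10:80249199-80249498 and Cox5b on the plus strand at chr1:36691237-36691536. Sdha lies on the minus strand at chr13:74350191-74350490, and Ndufs6 on the minus strand at chr13:73328433-73328732.
Ndufa13: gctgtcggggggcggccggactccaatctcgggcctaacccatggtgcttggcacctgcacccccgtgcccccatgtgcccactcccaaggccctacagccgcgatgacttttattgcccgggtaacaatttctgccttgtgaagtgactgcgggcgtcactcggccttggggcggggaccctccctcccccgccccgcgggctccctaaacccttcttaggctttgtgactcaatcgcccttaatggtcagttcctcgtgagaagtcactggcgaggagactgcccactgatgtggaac
Ndufs7: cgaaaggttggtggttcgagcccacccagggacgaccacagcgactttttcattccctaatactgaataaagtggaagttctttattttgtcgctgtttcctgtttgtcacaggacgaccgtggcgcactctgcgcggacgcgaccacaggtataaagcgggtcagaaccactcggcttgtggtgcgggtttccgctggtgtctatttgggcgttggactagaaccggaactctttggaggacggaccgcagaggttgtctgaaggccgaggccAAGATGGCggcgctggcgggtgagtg
Cox5b: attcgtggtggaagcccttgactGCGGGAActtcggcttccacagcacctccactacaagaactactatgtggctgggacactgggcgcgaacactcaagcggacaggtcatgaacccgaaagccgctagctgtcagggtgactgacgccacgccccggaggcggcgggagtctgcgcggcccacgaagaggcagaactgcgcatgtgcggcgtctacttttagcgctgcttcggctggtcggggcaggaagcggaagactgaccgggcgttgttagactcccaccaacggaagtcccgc
Sdha: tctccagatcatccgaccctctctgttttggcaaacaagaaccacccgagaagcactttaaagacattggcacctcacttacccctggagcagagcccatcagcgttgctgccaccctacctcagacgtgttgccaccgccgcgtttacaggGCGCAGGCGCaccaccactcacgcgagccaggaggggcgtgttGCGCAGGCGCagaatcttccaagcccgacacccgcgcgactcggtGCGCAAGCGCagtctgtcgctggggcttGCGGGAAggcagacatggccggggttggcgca
Ndufs6: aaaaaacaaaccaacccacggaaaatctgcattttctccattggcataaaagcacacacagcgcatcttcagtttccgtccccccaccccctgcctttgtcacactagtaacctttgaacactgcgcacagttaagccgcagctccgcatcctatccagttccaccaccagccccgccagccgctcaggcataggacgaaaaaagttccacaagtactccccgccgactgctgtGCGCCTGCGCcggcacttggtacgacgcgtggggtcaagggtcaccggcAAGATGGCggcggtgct

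The motifs searched on both strands were CACGTG (the E-box that MGA and MAX bind), GCGGGAA (E2F), GCGC, any 2 bases and GCGC again (NRF1), CCGGAAG (ETS) and AAGATGGC (YY1). Matches overlapped each other only at Ndufv2, where 2 NRF1 matches shared bases. In the sequences above, Ndufs7 has YY1 at base 275, Cox5b has E2F at base 24, and Ndufs6 has NRF1 at base 235 and YY1 at base 284, counted from the 5′ end. Sdha has NRF1 at bases 153, 196 and 241 and E2F at base 269. NRF1 was in 12 of the 55 promoters (21.8%, against 9.61% of all promoters), ETS in 11 of the 55 (against 12.9%) and YY1 in 7 (12.7%, against 3.57%). The E-box was in 2, Ndufa7 and Ndufv1 (3.64%, against 8.91%), and E2F in 3, Cox5b, Ndufs3 and Sdha (5.45%, against 6.84%). Among promoters that overlapped a WT PCGF6 peak, the E-box was in 1 of 39 (2.56%, against 14.5% of all such promoters) and E2F in 3 (7.69%, against 11.4%). NRF1 was in 11 of these 39 (28.2%, against 17.4%), YY1 in 6 (15.4%, against 5.62%) and ETS in 9 (23.1%, against 22.4%). A match describes the letters of the window and does not show that a factor binds there.

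RING1B and H2AK119ub1 were at few of these genes in crypts or ESC, below the background in every list. RING1B lay at 2 of 70 genes in AhCre Pcgf6 KO crypts (4.89% of all genes), 1 in AhCre WT crypts (7.74%), 3 in Villin Pcgf6 KO crypts (7.61%), 4 in Villin WT crypts (14.2%) and 4 in ESC (17.8%). Ndufa13 was in all 5 lists. Its scores were 11.4 in AhCre Pcgf6 KO and 17.9 in AhCre WT, 14.3 in Villin Pcgf6 KO and 31.1 in Villin WT, and 22.4 in ESC. Both Cre lines thus gave the lower score in KO, and each of these peaks overlapped the PCGF6 peak and Tssk6.

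Ndufs6, for a zinc-binding accessory subunit of complex I, was the other gene with RING1B in more than 1 list. It scored 17.7 in AhCre Pcgf6 KO crypts and had no peak in AhCre WT crypts, and it scored 20.3 in Villin Pcgf6 KO crypts and 39.2 in Villin WT crypts. The AhCre pair and the Villin pair thus went opposite ways. The peak covers the adjoining ends of Ndufs6 and Mrpl36, a mitochondrial ribosomal protein gene. Villin Pcgf6 KO crypts alone had a peak at Ndufs1 (10.3), and Villin WT crypts alone had one at Ndufs8 (12.1) and Ndufa9 (10.4), all close to the lowest score. In ESC, RING1B lay at Cox5b (13.5), Cox4i2 (13.2) and Cox8c (11.4), and Cox5b and Cox8c had PCGF6 there as well.

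Between genotypes, no AhCre RING1B peak was lost (44.7% of all genes with a WT peak lost theirs) and that of Ndufs6 was gained (0.782% of all genes without a WT peak gained one). In Villin crypts the peaks of Ndufs8 and Ndufa9 were lost, 2 of 4 (53.7% of all genes), and that of Ndufs1 was gained (1.31%). Of the 48 genes with PCGF6 in WT crypts, a Villin WT RING1B peak overlapped the PCGF6 peak at 4 (8.33%, against 26.1% of all genes with PCGF6), at Ndufa13, Ndufs6, Ndufs8 and Ndufa9. An AhCre WT RING1B peak did so at 1 (2.08%, against 11.7%), at Ndufa13. The other Villin WT libraries gave 13 of 48 for CTCF (27.1%, against 37.3%) and 14 for RAD21 (29.2%, against 3492 of 8740 genes). PCGF6 was not profiled in Villin crypts, so these overlaps compare libraries of 2 Cre lines.

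H2AK119ub1 lay at 3 of 70 genes in AhCre Pcgf6 KO crypts (17.7% of all genes), 2 in AhCre WT crypts (16%), 1 in Villin Pcgf6 KO crypts (8.85%) and 1 in Villin WT crypts (10.4%). Ndufa4l2 had the mark in all 4 lists, with 33.9 in AhCre Pcgf6 KO, 46.6 in AhCre WT, 16.7 in Villin Pcgf6 KO and 24.0 in Villin WT. In AhCre crypts and in Villin WT crypts the mark formed a domain there that runs over the gene to its neighbours Stac3 and Shmt2. It was called as 1 peak of 11581 bp in AhCre Pcgf6 KO crypts and as pieces in AhCre WT crypts, the longest being 5868 bp. In Villin WT crypts it was 1 peak of 9901 bp. In Villin Pcgf6 KO crypts the mark came in pieces at both ends of the gene, the longest of those counted being 2504 bp. The middle of the gene, over 1 kb from both ends, was not searched, so a longer or stronger KO piece there would be missed. Among the peaks counted, the score was the lower one in KO in both lines, while the order of peak lengths was opposite.

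Cox6b2 had H2AK119ub1 in AhCre crypts only, with 12.9 in KO and 10.6 in WT, in peaks shared with Fam71e2. None of the 70 genes lost the mark in AhCre crypts (12.8% of all genes with a WT peak did) or in Villin crypts (29.3%). The count of genes that gained it was 1 in AhCre crypts (4.26% of all genes without a WT peak) and 0 in Villin crypts (1.81%). RING1B was not within 1 kb of an outer end of Ndufa4l2 or Cox6b2 in any list, and the middle of Ndufa4l2 was not searched.

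**Figure D5:**
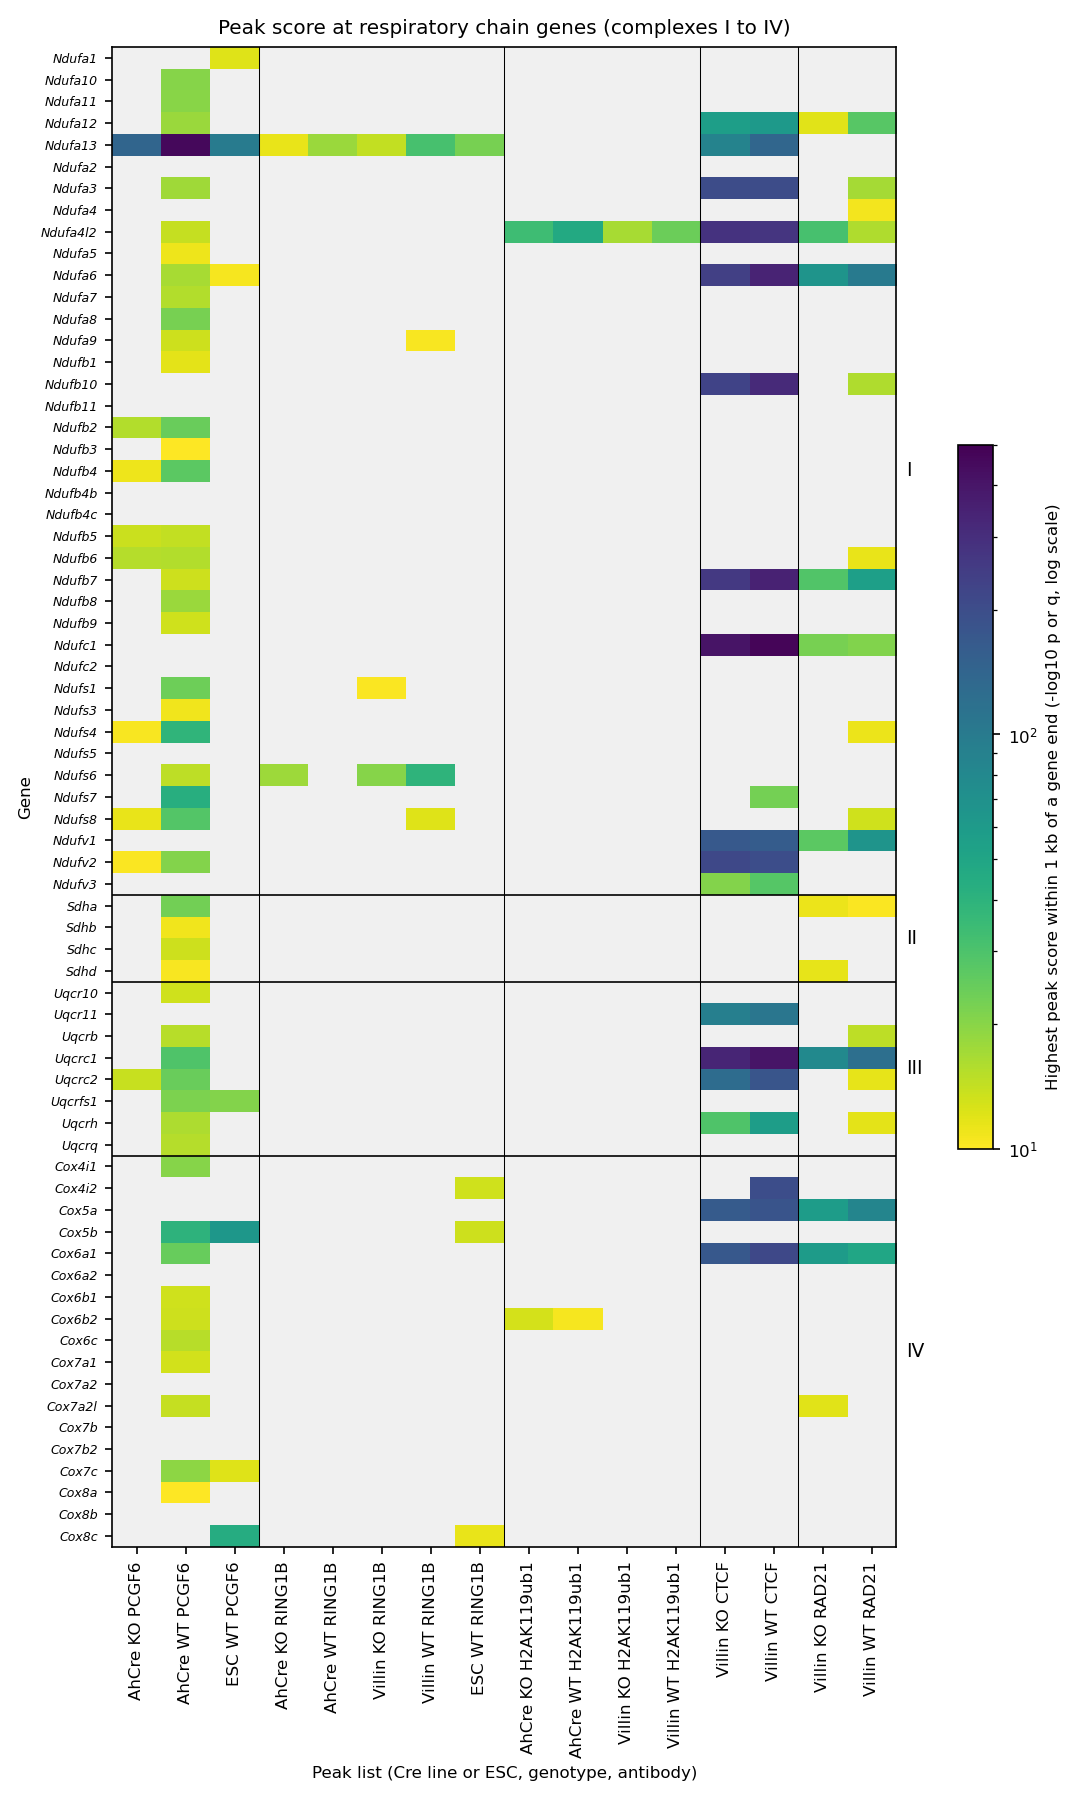
Highest peak score within 1 kb of a gene end (colour on a log scale, −log10 p or q, grey where the list holds no peak) for 69 of the 70 respiratory chain genes by complex (vertical axis) in the 16 peak lists (horizontal axis). The filled PCGF6 column is that of AhCre WT crypts, RING1B and H2AK119ub1 fill few cells, and CTCF and RAD21 mark overlapping sets of genes in Villin crypts; colours compare genes within a list, as scores are not scaled between lists.

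CTCF was near the background in how many of these genes it touched, and nearly all its peaks were in both genotypes. It lay at 17 of 70 genes in Villin Pcgf6 KO crypts (24.3%, against 23.2% of all genes) and at 19 in Villin WT crypts (27.1%, against 25.5%). The median score at the genes with a peak was 170 in KO and 198 in WT, against 88.5 in KO and 79.8 in WT over all genes with a peak. By complex, CTCF was at 11 of 40 complex I genes in KO and 12 in WT, at no complex II gene, at 4 of 8 complex III genes in both genotypes, and at 2 of 18 complex IV genes in KO and 3 in WT.

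Ndufc1, for a small membrane arm subunit of complex I, had the highest CTCF score, 410 in KO crypts and 475 in WT crypts. Uqcrc1 had 332 in KO and 399 in WT, and Ndufb7 had 259 in KO and 343 in WT. Ndufa6 had 238 in KO and 338 in WT, and Ndufb10 had 226 in KO and 312 in WT. Of the 17 genes with CTCF in both genotypes, only Ndufa4l2 (282 in KO and 275 in WT), Ndufv2 (214 in KO and 199 in WT) and Ndufv1 (168 in KO and 161 in WT) had the higher score in KO. The peaks of Cox6a1, Ndufa3, Cox5a, Uqcrc2, Ndufa13 and Uqcr11 had WT scores between 108 and 215, and those of Ndufa12, Uqcrh and Ndufv3 between 28.2 and 60.9.

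CTCF was lost at 1 of the 19 genes, Ndufs7 (12.0% of all genes with a WT peak lost theirs), where the stronger of the WT peaks scored 22.6. None was gained (1.26% of all genes without a WT peak). At Cox4i2 the WT peak of score 198 lay 943 bp from the gene end, and the KO peak that overlaps it ended outside the window, so the gene counts as neither lost nor kept.

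RAD21 lay at 12 of 70 genes in Villin Pcgf6 KO crypts (17.1%, against 14% of all genes) and at 19 in Villin WT crypts (27.1%, against 22.2%). It was lost at 9 of the 19 (47.4%, against 41.1% of all genes with a WT peak) and gained at 2 (1.62% of all genes without one). The strongest peaks were kept. Uqcrc1 had 78.7 in KO and 120 in WT, Ndufa6 had 66.2 in KO and 99.8 in WT, and Cox5a had 57.3 in KO and 84.4 in WT. Ndufv1 had 26.7 in KO and 65.9 in WT, Ndufb7 had 28.8 in KO and 55.2 in WT, and Ndufa12 had 12.0 in KO and 27.6 in WT. The score was higher in KO at Cox6a1 (58.9, against 49.1 in WT), Ndufa4l2 (31.3, against 16.04), Ndufc1 (22.4, against 21.1) and Sdha (11.2, against 10.2).

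The 9 lost RAD21 peaks all had low WT scores. They were at Ndufa3 (16.9), Ndufb10 (15.9), Uqcrb (14.7), Ndufs8 (13.3), Uqcrh (11.7), Uqcrc2 (11.6), Ndufb6 (11.4), Ndufs4 (11.1) and Ndufa4 (10.6). The gained ones, at Cox7a2l (11.9) and Sdhd (11.6), were as low. With the WT list shortened to the length of the KO list, RAD21 was at 12 genes in each genotype. Then 3 genes counted as having lost it, Ndufa3, Ndufb10 and Uqcrb (27.8% of all genes with a WT peak), and 3 as having gained it, Cox7a2l, Sdha and Sdhd (2.69% of all genes without one). Sdha counted there because its WT peak of 10.2 was left out of the shortened list. RAD21 overlapped a CTCF peak of the same genotype at 9 of 12 genes in KO crypts (82.7% of all genes with RAD21) and at 13 of 19 in WT crypts (69.4%). The WT peak was lost at 4 of the 13 genes with RAD21 on CTCF (30.8%, against 24.9% of all such genes) and at 5 of the 6 with RAD21 away from CTCF (83.3%, against 77.9%). The gained peaks at Cox7a2l and Sdhd and the kept one at Sdha were away from CTCF. This split was chosen after the values were seen.

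Other mitochondrial gene groups, listed with earlier results of these data known, also had PCGF6 in WT crypts at most members. Over all genes the shares were 13.7% in KO crypts and 39.9% in WT crypts. ATP synthase, which uses the proton gradient, had it at 8 of 19 genes in KO crypts and at 18 in WT crypts, led by Atp5g2 (40.1 in KO and 125 in WT) and Atp5e (18.4 in KO and 40.5 in WT). Assembly factors of the complexes had it at 11 of 45 genes in KO and 35 in WT. Their highest scores were at Uqcc2, an assembly factor of complex III (98.4 in KO and 584 in WT), and Sco2, a copper chaperone of complex IV (35.1 in KO and 77.6 in WT). Citrate cycle and pyruvate dehydrogenase genes had it at 3 of 16 genes in KO and 14 in WT, led by Suclg2 (25.0 in KO and 82.0 in WT) and the citrate synthase gene Cs (15.8 in KO and 39.9 in WT). Regulators of mitochondrial genes had it at 5 of 12 genes in KO and 8 in WT, led by Yy1 (31.4 in KO and 60.8 in WT) and Pprc1 (25.0 in KO and 60.8 in WT). Of the carriers and subunits outside the symbol rule, 1 of 4 had it in KO and 3 in WT. Cycs and Cyc1, for cytochrome c and the cytochrome of complex III, scored 20.8 and 19.8 in WT crypts and had no KO peak, and Ndufab1, for the acyl carrier protein of complex I, scored 11.9 in KO and 17.9 in WT.

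The WT peak was lost at 10 of the 18 ATP synthase genes, 23 of the 35 assembly factor genes, 11 of the 14 citrate cycle genes and 3 of the 8 regulator genes, beside 39 of the 48 respiratory chain genes. Of all genes with a WT peak, 64.4% lost it. In ESC the groups had PCGF6 at 4 of 19, 10 of 45, 4 of 16 and 3 of 12 genes, in the same order, beside 7 of 70 respiratory chain genes and 22.7% of all genes. No test of these shares was made.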

How the data were processed

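Peak lists of 16 ChIP-seq libraries of mouse crypts and ESC were used, out of 22 samples; the 6 inputs have no list here. The deposited scores are −log10 p or q values from the authors' peak caller, called per sample. Tools in the submitters' processing notes are MACS2 2.1.1 and Bowtie, in versions 1.1.2 and 1.2.2. They list hg38, dm6 and mm10 as builds, with no roles. H2AK119ub1 chromatin carried 5% Drosophila chromatin, per the labels, and no spike count was used. Samples were grouped by title and antibody tag.

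Each peak was assigned to every protein-coding gene of the RefSeq GRCm38.p6 table with an outer end within 1 kb, after conversion to 1-based positions. Gene starts and strands came from the RefSeq promoter table, and 15 of the 70 genes have no entry there. KO and WT lists were matched by an overlap of 1 bp or more. No test was run, because each group has 1 library, and members were set beside all genes by the same rule. Lists hold no reads, so depth and precision are unknown. The members, gene groups and rules were chosen with earlier results of these data known. Some results for named members are not reported here. Named genes were the other members, with values for the 10 highest WT PCGF6 scores, all members with RING1B or H2AK119ub1, gained or lost peaks, isoform pairs and members next to a threshold, and the 2 highest WT PCGF6 scores of each other group. Windows, the RefSeq start (added after seeing the data), score minimum, peak ownership, list length and matching were varied. The counting was tested on 200 planted genes, of which all 100 losses and 100 kept peaks were recovered with 0 false losses. Peak counts per gene differed from bedtools 2.31.1 in 0 of 16 lists. Python 3.11.15, numpy 2.4.6, pandas 2.3.3 and matplotlib 3.10.9 were used.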

Additional observations from a re-analysis of the deposited data

Results flagged for a closer look

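The number of respiratory chain genes with RING1B went opposite ways in the 2 Cre lines. KO minus WT was 1 gene in AhCre crypts, with RING1B at 2 genes in KO and 1 in WT, and -1 gene in Villin crypts, with 3 genes in KO and 4 in WT. Over all genes the number was lower in KO in both lines. It was 1071 in KO and 1693 in WT in AhCre crypts, and 1666 in KO and 3112 in WT in Villin crypts. At Ndufs6 the lines also differed, with scores of 17.7 in AhCre KO and none in AhCre WT, and of 20.3 in Villin KO and 39.2 in Villin WT. The difference was not tested, since each group has 1 library, and Cre line, inducing agent and library cannot be told apart.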

How the results depend on the processing

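Of 173 alternative values for 24 counts, 134 stayed within 1.5 times the reported count and 39 did not. The balance of PCGF6 turned with lists of equal length: 3 genes lost a peak and 6 counted as gained, with a peak at 9 genes in AhCre KO and 6 in AhCre WT. Those 6 gained genes had peaks in the full WT list that the shortening left out. Members with a peak moved as follows. With peaks of score 20 or more, PCGF6 was at 1 gene in AhCre KO, 18 in AhCre WT and 4 in ESC. RING1B was then at 0 in AhCre KO, 0 in AhCre WT, 1 in Villin KO, 2 in Villin WT and 1 in ESC. H2AK119ub1 was at 1 in AhCre KO, 1 in AhCre WT and 0 in Villin KO, and RAD21 at 8 in Villin WT. Losses were then 17 for PCGF6 and 1 each for Villin H2AK119ub1, Villin RING1B and RAD21. With peaks that touch no other gene, PCGF6 was at 5 in AhCre KO and 23 in AhCre WT, RING1B at 0 in AhCre KO, 0 in AhCre WT, 0 in Villin KO and 1 in Villin WT, H2AK119ub1 at 1 in AhCre KO and 0 in the 3 other lists, and RAD21 at 11 in Villin WT. Around the gene start alone, H2AK119ub1 was at 1 in AhCre KO, 1 in AhCre WT, 0 in Villin KO and 0 in Villin WT, and RING1B at 2 in ESC. This window could be laid only at the 55 genes with a known start. Ndufa4l2, Cox4i2 and Cox8c are among the 15 without one, so their peaks dropped out by construction. With the midpoint in the window, H2AK119ub1 was at 0 in Villin WT. With a 2 kb window, CTCF was at 26 in Villin KO and was lost at 2. Without the overlap condition CTCF was also lost at 2. With lists of equal length, losses were also 3 for RAD21, with 3 gained, and 0 for Villin RING1B. With the RefSeq start added to the gene ends, an alternative chosen after seeing the data, each of these counts stayed within that range, and PCGF6 was at 10 in AhCre KO and 50 in AhCre WT and was lost at 40. A higher score minimum, a narrower window or a shorter list leaves fewer peaks by construction; other causes were not tested. Of 56 values for gained peaks, 48 stayed within that range and 8 did not.

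No paired analysis was possible because each group holds 1 library and no test was run. Leaving out a replicate was not possible either. Depth is unknown, and peaks under the score minimum of 10 are not listed. A window around both gene ends can take in a neighbour's promoter, and peaks shared by 2 genes were counted for both. Scores depend on depth and input and were not compared as amounts of protein.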

Other observations

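No peak of any of the 16 lists lay within 1 kb of an outer end or a known RefSeq start of Ndufa2, Ndufb4b, Ndufb4c, Ndufb11, Ndufc2, Ndufs5, Cox6a2, Cox7b, Cox7b2 or Cox8b. Broadly expressed subunit genes (Ndufc2, Ndufs5, Cox7b) stand there beside tissue-restricted forms (Cox6a2, Cox7b2, Cox8b). Ndufs5 has an NRF1 match in its promoter, and its nearest WT crypt PCGF6 peak lay 69.3 kb away.

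Ndufa13 had PCGF6, RING1B and CTCF in every list of those antibodies and neither H2AK119ub1 nor RAD21 in any. Its CTCF peak scored 87.5 in Villin Pcgf6 KO crypts and 138 in Villin WT crypts. Ndufa4l2 was the only respiratory chain gene with H2AK119ub1, CTCF and RAD21 in each list of Villin crypts.

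Besides the 4 named above, the other 6 genes whose WT PCGF6 peak had its midpoint nearer to the end of another gene were Ndufb6 (Smim27), Uqcrh (Lrrc41), Ndufa5 (Asb15), Cox7a1 (Capns1), Ndufb1 (Cpsf2) and Ndufb9 (Tatdn1).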
